A study of Mus musculus with 27 samples.

Results

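The last step of blood cell formation in this culture, from hemogenic endothelium 2 (HE2) to hematopoietic progenitors (HP), was followed on 4 arrays of cells in which AP-1 activity had been blocked with doxycycline (DOX). The cells were the 2 HE2 DOX and the 2 HP DOX samples of the 27 arrays in the series, and they were taken by cell type and treatment from the labels, with all genes described. HE2 cells were sorted as KIT+TIE2+CD41+ and HP cells as KIT+TIE2-CD41+ after 2 days of blast culture started from FLK1+ cells of embryoid bodies, with 1 µg/ml DOX for those 2 days. All groups came from the dnFOS ESC line, a clone of mouse A2lox embryonic stem cells with a Flag-tagged dominant-negative FOS peptide at the targeted Hprt locus, which DOX switches on. Untreated HE2 and HP cells of the same line, again with 2 arrays each, were the comparison for the same step, and DOX-treated cells without the peptide were not among the groups. No label or method says whether the 2 replicates were separate differentiations, so that the p-values may not measure a spread between differentiations. The spread they measure is that within groups over all 27 arrays, not that of these 4 arrays alone. The number of arrays limits the precision of every value.

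Hemogenic endothelium is a transient endothelial cell type that gives rise to blood cells in the endothelial-to-hematopoietic transition. During this transition the cells lose junctions and vascular genes, switch on blood genes under the control of RUNX1 and its partners, round up and detach. AP-1 is a family of dimeric transcription factors of the FOS, JUN, ATF and MAF families, and the dnFOS peptide pairs with JUN proteins and keeps them from DNA. The question of the comparison is which genes still differ between the last endothelial and the first progenitor stage while AP-1 is blocked.

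The levels given here are log2 signals of 1 probe per gene, relative to the array's own 75th percentile, always with replicate 1 before replicate 2, and a difference is HP minus HE2 on this log2 scale. The probe of a gene is the one with the highest mean level over all arrays. Levels can be compared between arrays but not between genes. Before that scaling, the 75th percentile was 262.6 and 292.7 signal units on the HE2 DOX arrays and 236.3 and 308.7 on the HP DOX arrays, 57.96% and 59.01% of probes against 63% and 64.05% were well above background, and 0 spots were saturated. It was 73.21 on the untreated HE2 replicate 1 array and 602.8 on replicate 2, so that the untreated pair differed far more in brightness. All replicate 1 arrays of these cells lay on slide 1 and all replicate 2 arrays on slide 3, so that the difference within a replicate is also the difference within a slide. Hprt, the gene at the targeted locus, was 4.94 and 5.83 in HE2 DOX cells and 4.96 and 5.73 in HP DOX cells, above all 4 arrays of untreated HE2 and HP cells, which lay between 2.08 and 3.47.

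The sorting markers did not all follow the labels. Kit, the receptor for stem cell factor, was 4.83 and 5.39 in HE2 DOX cells and 4.95 and 5.40 in HP DOX cells, a difference of 0.12 and 0.01 on the slides, and the populations overlapped. Tek, which encodes TIE2, the angiopoietin receptor that HP cells lack by sort, was 2.71 and -0.74 in HE2 DOX cells and -1.93 and -2.17 in HP DOX cells, lower on both HP arrays than on both HE2 arrays. Itga2b, which encodes CD41, the integrin alpha chain that marks the onset of blood identity, was 3.84 and 0.06 in HE2 DOX cells and 0.43 and 2.62 in HP DOX cells. It was thus high on HE2 DOX replicate 1 and HP DOX replicate 2 and low on the other two, although both populations were sorted as CD41+. Its level in HE1 DOX cells, which were sorted without CD41, was 1.94 and -0.82. Because the array labelled HE2 DOX replicate 2 had little Itga2b and less Tek than replicate 1, and the array labelled HP DOX replicate 1 little Itga2b, single genes are given by array or slide, and the medians of gene lists also without each array in turn, in the order HE2 DOX replicate 1, HE2 DOX replicate 2, HP DOX replicate 1 and HP DOX replicate 2. Whether any of the 4 arrays carries the label of another was not tested, and every direction given is that of the populations as labelled.

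**Figure D1:**
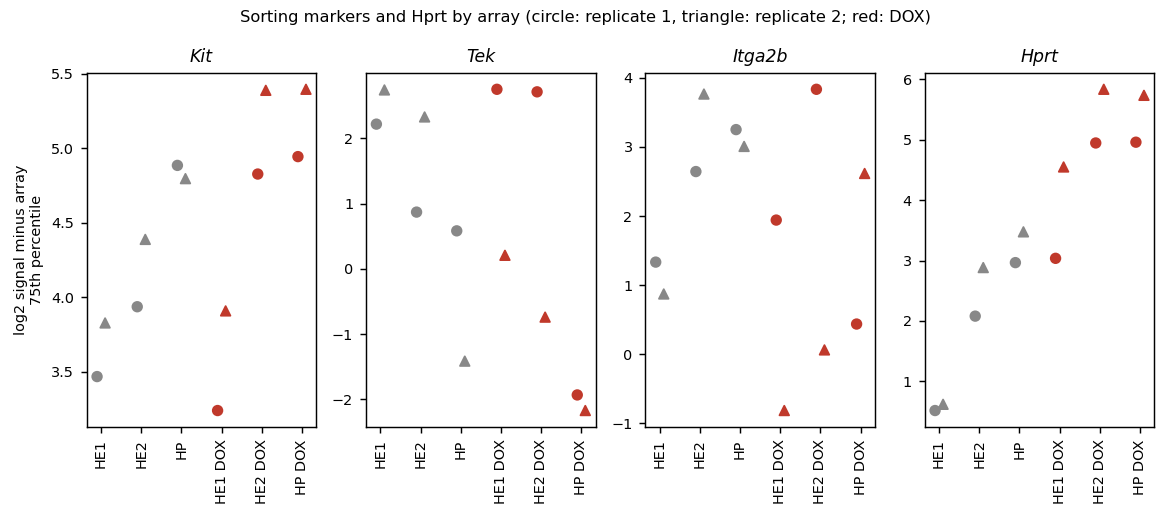
Level of the sorting markers and of Hprt (log2 signal relative to the array's 75th percentile, a separate axis for each gene) on the arrays of HE1, HE2 and HP cells, untreated (grey) and with DOX (red), with a circle for replicate 1 and a triangle for replicate 2. Tek was lowest on the 2 HP DOX arrays, while Itga2b of HE2 DOX and of HP DOX cells was spread from 0.06 to 3.84.

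Among single genes, the lowest p belonged to Grtp1, Emilin2 and Zbtb16, which were higher in HP, and to Nrep, Pcdhb20 and Ldb2, which were lower, with differences from -2.93 for Ldb2 to 3.29 for Emilin2. In a limma fit to all 27 arrays with 1 mean per group, 24408 genes were detected on both arrays of HE2 DOX or of HP DOX cells and were tested, and 0 of them (0.0%) passed an adjusted p under 0.05 with at least a 2-fold difference, the terms on which a gene is called here. The lowest adjusted p was 0.0714, and 776 genes had an unadjusted p under 0.05, fewer than the 1220 that make up 5% of the genes tested. The slide held more than 1 group, and with the slide as a block in the same fit 14 genes (0.0574% of those tested) were called higher and 23 (0.0942%) lower in HP, with 2618 genes at an unadjusted p under 0.05. A random slide effect in place of the fixed one gave 41 calls, of which 28 were among these 37, and with normexp background correction and the slide as a fixed block 40 were called, of which 15 were among the 37. With array quality weights 10 were called, and the other fits without the slide called 0 to 6. The calls rest on that choice and on the arrays: on the values that the authors normalized, 0 were called with the slide as a block, and without HE2 DOX replicate 1 the fit with no block called 5, while without any 1 of the other 3 arrays it called 0. The median difference over the 24408 genes was 0.10, and it was -0.25 when arrays were scaled to their median signal.

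The slides agreed little on the step. Across the genes tested, the difference on slide 1 and that on slide 3 had a Pearson correlation of 0.16, against 0.43 for the same step of untreated cells, which is a description across genes, since genes are not independent replicates. The difference was at least 2-fold on average in 2382 genes that were higher and 1058 that were lower in HP. A simpler description was therefore added. In 1910 genes (7.83% of those tested) both HP DOX arrays lay above both HE2 DOX arrays with at least a 2-fold mean difference, and in 777 (3.18%) both lay below. These genes are called separated here, and the 2 shares are the background for the gene groups. A gene that was tested because HP alone detected it is bound to tend higher, and one that HE2 alone detected to tend lower, so that beside these counts the number of tested members detected in each population is given.

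**Figure D2:**
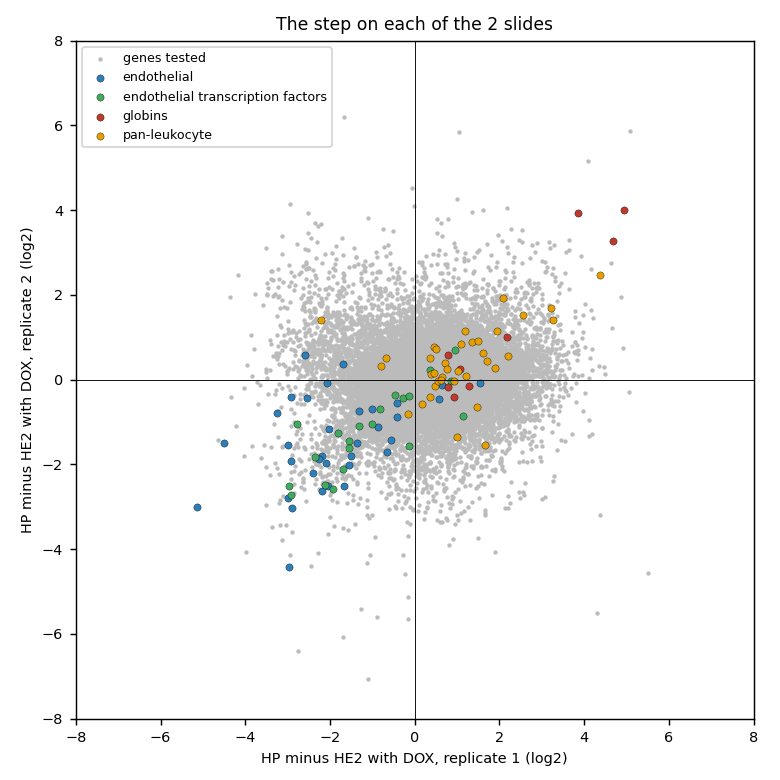
Difference HP minus HE2 with DOX (log2) on slide 1, replicate 1 (horizontal axis), against slide 3, replicate 2 (vertical axis), for each of the 24408 genes tested (grey), with 4 gene lists in colour. Most endothelial genes lie in the lower left quadrant, 3 globin genes stand at the upper right, and the grey cloud shows little slope, with a Pearson correlation of 0.16.

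With the slide as a block 23 genes fell. Here and below each SE is that of the fit without the block, also where the adjusted p is that of the blocked fit. Nrep, a small protein of neural and regenerating cells, was 1.17 and 1.07 in HE2 DOX cells and -2.04 and -1.16 in HP DOX cells, a difference of -2.72 (SE 0.44) with a limma adjusted p of 0.0222 in the blocked fit and 0.0714 without the block. Ldb2, a cofactor that binds LIM-domain transcription factors, was 3.08 and 2.72 in HE2 DOX cells and -0.02 and -0.03 in HP DOX cells. Both HP arrays lay below both HE2 arrays, and the difference of -2.93 (SE 0.49) corresponds to 7.6-fold. Dysf, dysferlin, a protein of membrane repair, was 2.01 and 1.30 in HE2 DOX cells and -0.67 and -0.87 in HP DOX cells, a difference of -2.42 (SE 0.43). The receptor ligand Efna1, ephrin-A1, was 2.19 and 3.20 in HE2 DOX cells and -0.45 and 0.78 in HP DOX cells, a difference of -2.53 (SE 0.73). On both slides its HP level was lower by more than 2 log2 units. Ramp3, a co-receptor for adrenomedullin in vessels, was 0.63 and 0.57 in HE2 DOX cells and -2.02 and -1.76 in HP DOX cells, a difference of -2.49 (SE 0.64), and the HE2 arrays differed from each other by far less than from the HP arrays.

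Cadherins and regulators of small GTPases were also among the genes that fell. Fat4, an atypical cadherin of planar cell polarity, was -1.08 and -1.70 in HE2 DOX cells and -3.98 and -5.30 in HP DOX cells, a difference of -3.25 (SE 0.62), and it was well above background on 1 of the 2 HP arrays. Of the clustered protocadherins, cell surface proteins of the Pcdhb locus whose genes resemble each other closely, so that probes may share signal, Pcdhb20 was -1.92 and -2.60 in HE2 DOX cells and -4.87 and -5.33 in HP DOX cells. It was not well above background on either HP array, so that it was at least 5.37-fold lower. Pcdhb16 and Pcdhb21 differed by -2.30 and -2.36, with blocked adjusted p of 0.0448 and 0.0448 (limma). Arhgef28 and Arhgef3, exchange factors that activate small GTPases, differed by -2.25 and -2.21, and the arrays of the populations did not overlap for either. Another probe of Arhgef28 gave -2.21.

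Transcription factors of the early embryo were among the genes that fell with the slide as a block. Hoxb4, a homeobox factor known for expanding blood stem cells in culture, was 1.26 and 1.73 in HE2 DOX cells and -0.90 and -0.54 in HP DOX cells, a difference of -2.21 (SE 0.53) with a blocked limma adjusted p of 0.0448. Tbx3, a T-box repressor, was 1.13 and 1.15 in HE2 DOX cells and -1.98 and -0.42 in HP DOX cells, and Hand2, a helix-loop-helix factor of heart and limb, was 0.85 and 2.13 in HE2 DOX cells and -1.07 and -0.01 in HP DOX cells. All 3 were well above background on all 4 arrays, and HP was lower on both slides. In HE1 DOX cells, the stage before HE2, their levels were 1.99 and 3.26 for Hoxb4, 2.23 and 3.45 for Tbx3 and 2.11 and 4.48 for Hand2, which lay above HP on each slide as well. The other named genes in this direction were Frmd3, Asb4, Qpct, Npdc1, Gprc5b and Lrp11, with differences from -4.03 for Frmd3 to -2.10 for Lrp11. Other probes of Frmd3, Asb4 and Gprc5b gave differences up to -0.71, 0.19 and -1.08, so that the size depends on the probe for these 3.

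Among the genes that rose with the slide as a block were a zinc finger factor, a matrix protein and receptors of blood cells. Zbtb16, which encodes PLZF, a repressor active in blood stem cells and innate lymphocytes, was -1.18 and -1.22 in HE2 DOX cells and 2.02 and 1.89 in HP DOX cells, a difference of 3.15 (SE 0.61) and 8.89-fold, with a limma adjusted p of 0.0222 with the block and 0.149 without. Emilin2, an elastin-associated matrix glycoprotein, was -0.96 and -1.02 in HE2 DOX cells and 2.60 and 1.99 in HP DOX cells, a difference of 3.29 (SE 0.57). For both genes the HE2 arrays lay close together and every HP array far above them. Tfr2, transferrin receptor 2, an iron sensor of erythroid and liver cells, was -3.19 and -2.45 in HE2 DOX cells and -0.27 and -0.29 in HP DOX cells, a difference of 2.54 (SE 0.56). Il1rl1, which encodes the IL33 receptor ST2 of mast cells, was -4.40 and -3.37 in HE2 DOX cells and -1.87 and -0.63 in HP DOX cells, a difference of 2.64 (SE 0.77), and its 3 probes gave 1.05 to 2.64. Ifitm1, an interferon-inducible membrane protein, was 1.49 and 1.25 in HE2 DOX cells and 3.86 and 2.88 in HP DOX cells, a difference of 2.00 (SE 0.52).

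Other rises began below detection, so that only a lower bound can be given. Grtp1, a RAB GTPase-activating protein, was -5.16 and -4.52 in HE2 DOX cells and -2.31 and -2.44 in HP DOX cells and not well above background in HE2, so that it was at least 4.36-fold higher in HP, with a blocked limma adjusted p of 0.0222. Glipr1, a protein of the CAP family, was at least 6.88-fold and Plekha2, a phosphoinositide-binding adaptor, at least 4.33-fold higher on the same terms. Phldb3, Ttyh2, Rpp25 and Tmem184a were the other named genes in this direction, with differences from 1.69 for Phldb3 to 2.73 for Tmem184a, and a second probe of Phldb3 gave 0.02. Kel, an erythroid surface enzyme that carries a blood group, was -6.74 and -6.79 in HE2 DOX cells and -1.66 and -0.93 in HP DOX cells, at least 9.52-fold higher in HP, but its limma adjusted p was 0.0672 with the block and 0.233 without. Pianp and Sh3gl3, which had the next lowest p among lower genes, differed by -3.46 and -2.07 and passed neither fit. Rgs1, A1bg and Smim5, which had a low p among higher genes, were at least 4.23-, 2.7- and 2.39-fold higher and passed neither fit.

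**Figure D3:**
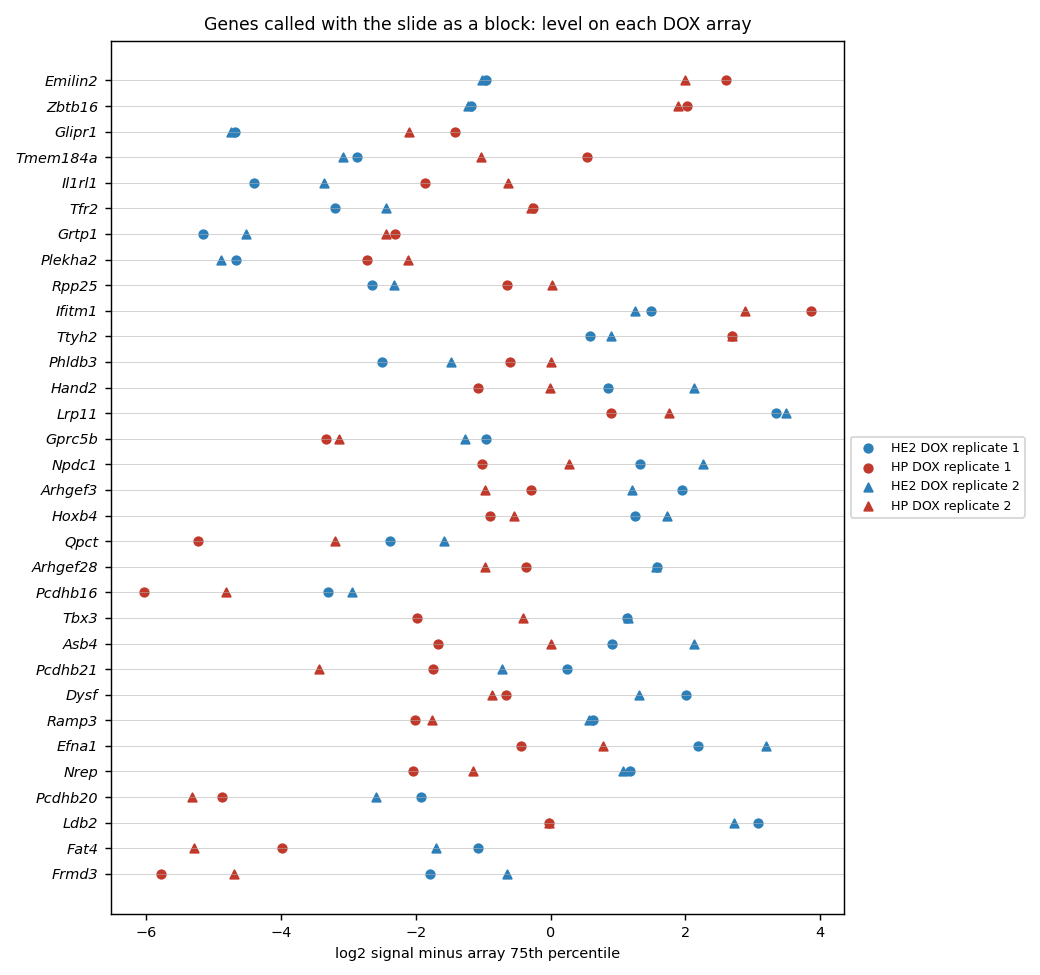
Level (log2 signal relative to the array's 75th percentile) of the 32 genes with a symbol that were called with the slide as a block, on each HE2 DOX (blue) and HP DOX (red) array, with circles for replicate 1 and triangles for replicate 2 and genes ordered by their difference. In every row both HP arrays lie on one side of both HE2 arrays.

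Of the genes called with the slide as a block, 9 of 12 higher and 13 of 20 lower genes with a symbol matched the RefSeq promoter table (GRCm38.p6). The 250 bases before the first listed gene start were searched on both strands for short motifs, and the same bases could count for more than 1 of them. The letters were TGANTCA for AP-1, GGAATG for TEAD, TGTGGT for RUNX, AGATAA for the GATA family, GGAAGT for ETS, CAGNTG for the E-box, ACAAAG for SOX, TTGNNCAA for CEBP and CCACACCC for KLF. Each count is set against the share of the 27025 promoters of the table and of the 11457 promoters of genes tested. AP-1 letters were in 0 of the 9 promoters of higher and 0 of the 13 of lower genes, against 6.87% of the table and 4.7% of genes tested. RUNX letters were in 0 and 0, against 14.2% and 11.1%, and CEBP letters in 0 and 0, against 5.74% and 4.89%. E-box letters were in 3 and 6, against 44.5% and 38.9%, ETS letters in 1 and 3, against 20% and 22.3%, and TEAD letters in 1 and 2, against 12.6% and 10.8%. For the GATA family the counts were 1 and 1, against 10.3% and 6.92%, for SOX 1 and 0, against 16.5% and 12.6%, and for KLF 2 and 0, against 3.19% and 3.5%. These matches are descriptions of letters in a short window. For each direction the matching genes with the lowest unadjusted p are shown, 5′ to 3′ on the gene's strand, with the motif letters in capitals. Grtp1 (chr8:13200625-13200874, minus strand) and Tfr2 (chr5:137569590-137569839, plus strand) were higher in HP, the first with an E-box beginning 145 bases and the second with the KLF letters beginning 22 bases before the start. Arhgef28 (chr13:98206166-98206415, minus strand) and Arhgef3 (chr14:27143743-27143992, plus strand) were lower, the first with an E-box at 120 and at 21 bases and the second with TEAD letters at 238 bases before the start.
Grtp1: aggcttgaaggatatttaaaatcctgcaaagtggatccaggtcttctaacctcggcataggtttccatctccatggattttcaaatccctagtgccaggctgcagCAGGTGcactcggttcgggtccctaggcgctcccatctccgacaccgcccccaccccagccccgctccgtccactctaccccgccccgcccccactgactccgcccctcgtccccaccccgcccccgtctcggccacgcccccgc
Tfr2: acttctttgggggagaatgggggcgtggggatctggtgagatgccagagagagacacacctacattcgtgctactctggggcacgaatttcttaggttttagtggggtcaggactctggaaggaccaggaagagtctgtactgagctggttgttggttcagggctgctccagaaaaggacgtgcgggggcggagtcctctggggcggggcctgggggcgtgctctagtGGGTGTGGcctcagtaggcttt
Arhgef28: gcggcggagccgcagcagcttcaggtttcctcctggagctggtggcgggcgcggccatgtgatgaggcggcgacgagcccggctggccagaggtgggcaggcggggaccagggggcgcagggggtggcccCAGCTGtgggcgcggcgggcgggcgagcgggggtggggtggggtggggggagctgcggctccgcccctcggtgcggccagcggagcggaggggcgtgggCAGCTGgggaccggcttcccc
Arhgef3: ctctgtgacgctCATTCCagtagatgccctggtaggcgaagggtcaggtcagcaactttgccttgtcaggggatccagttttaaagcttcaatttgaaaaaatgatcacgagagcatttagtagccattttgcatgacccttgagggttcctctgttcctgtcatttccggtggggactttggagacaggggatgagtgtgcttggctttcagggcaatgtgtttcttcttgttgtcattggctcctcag

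Endothelial genes were lower in HP almost as a whole. Of 35 endothelial genes on the array, 32 were lower in HP, and their median difference was -1.65 (-2.06 on slide 1, -1.50 on slide 3, and -1.50, -1.96, -1.85 and -1.58 without each array in turn), beside 0.09 over all 37208 genes and transcripts (0.37 on slide 1 and -0.17 on slide 3). Of the members tested 34 were well above background on both HE2 DOX arrays and 32 on both HP DOX arrays. In 22 of the 34 members tested (64.7%) both HP arrays lay below both HE2 arrays with at least a 2-fold mean difference, against 3.18% of all genes tested, and 0 were separated in the other direction. None passed the test in either fit, so that these are descriptions of the 4 arrays. Further genes of this and the following lists were picked for display after their values were seen. Adgrl4, an adhesion receptor of sprouting vessels, had the lowest p of the list. It was -1.05 and -3.68 in HE2 DOX cells and -6.18 and -6.67 in HP DOX cells and not well above background in HP, at least 5-fold lower. Cdh5, VE-cadherin, the junction protein of endothelium, was 5.39 and 5.92 in HE2 DOX cells and 3.30 and 3.94 in HP DOX cells, a difference of -2.09 and -1.98 on the slides. Both HP arrays were lower. Mmrn2, a matrix protein that binds CD93, was 4.04 and 4.04 in HE2 DOX cells and 1.04 and 1.25 in HP DOX cells. Ptprb, VE-PTP, the phosphatase of TIE2 and VE-cadherin, was 3.79 and 3.28 in HE2 DOX cells and 0.83 and -1.14 in HP DOX cells. For Mmrn2 and Ptprb all HP arrays lay below all HE2 arrays. Exceptions were Kdr, the VEGF receptor FLK1, at 3.96 and 5.58 in HE2 DOX cells and 5.50 and 5.50 in HP DOX cells, Cd34 with a difference of 0.05 and Bmx with 0.25. Pecam1, a junction protein shared with platelets and blood precursors, differed by -2.54 and -0.44 on the slides, and its populations overlapped. In bulk samples fewer cells of a type and less RNA per cell cannot be told apart.

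Vascular transcription factors followed the same direction with exceptions. Of 26 such factors 21 were lower in HP, the median was -0.94 (-0.64 on slide 1, -1.10 on slide 3, and -1.24, -0.64, -0.90 and -0.98 without each array in turn), and 11 of the 21 members tested (52.4%) were separated and lower, with 0 separated and higher. Of those tested 21 were well above background on both HE2 DOX arrays and 19 on both HP DOX arrays. None passed in either fit. Tcf15, a helix-loop-helix factor of paraxial mesoderm and endothelium, had the lowest p and was 1.91 and 1.59 in HE2 DOX cells and -0.01 and -0.99 in HP DOX cells, a difference of -2.25 (SE 0.66) that did not pass. The SOXF factors, which set endothelial identity and are lost as blood cells emerge, were lower together. Sox17 was 0.71 and 1.30 in HE2 DOX cells and -2.22 and -1.42 in HP DOX cells, Sox7 was 2.99 and 3.49 in HE2 DOX cells and 0.03 and 0.98 in HP DOX cells and Sox18 was 2.54 and 3.67 in HE2 DOX cells and 0.42 and 1.20 in HP DOX cells. For each of them both HP arrays were at least 2-fold lower, and the standard errors, from the spread shared over all groups, were 1.45 for Sox17, 1.72 for Sox7 and 1.51 for Sox18. Ets1, an ETS factor of vessels, was 3.77 and 4.33 in HE2 DOX cells and 2.22 and 2.89 in HP DOX cells. Among factors that endothelium shares with blood, Tal1 differed by 0.30 and Lmo2 by 0.82, while Fli1 differed by -0.42 and Erg by -0.85.

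In the Notch and arterial list, genes of the pathway that sets arterial fate, 19 of 24 were lower, with a median of -0.84 (-0.75 on slide 1, -0.86 on slide 3, and -0.94, -0.60, -0.81 and -0.83 without each array in turn) and 6 of the 20 members tested (30%) separated and lower. Of those tested 19 were well above background on both HE2 DOX arrays and 16 on both HP DOX arrays. Nrp2, a co-receptor for VEGFC and semaphorins, had the lowest p. It was 4.95 and 5.41 in HE2 DOX cells and 3.04 and 3.81 in HP DOX cells, a difference of -1.75 (SE 0.50), and a second probe gave -1.23. The targets and ligands of the pathway were not alike. Nrarp, a feedback target of Notch, was 0.82 and 0.03 in HE2 DOX cells and -2.42 and -2.06 in HP DOX cells, and the arterial ligand Efnb2 was 1.17 and 0.99 in HE2 DOX cells and -1.41 and -0.64 in HP DOX cells, so that both were lower on each HP array. The receptors Notch2 and Notch3 differed by 0.12 and 0.45, the ligands Dll4 and Jag1 by 0.01 and 0.19.

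Blood transcription factors had members that were higher in HP and members that were lower, and most were not separated in either direction. Of 38 factors, all of them tested, 21 were higher and 17 lower, with a median of 0.47 (0.32 on slide 1, 0.24 on slide 3, and 0.01, 0.33, 0.30 and 0.19 without each array in turn). In 5 of the 38 members tested (13.2%) the HP arrays were separated and higher, and in 4 (10.5%) they were separated and lower. Over all genes tested the shares were 7.83% and 3.18%. Detected on both HE2 DOX arrays were 35 of them and on both HP DOX arrays 38. With the slide as a block Zbtb16 rose and Hoxb4 fell, and no other factor of the list passed. Gata1, the master factor of erythroid, megakaryocyte and mast cells, was 1.20 and 2.04 in HE2 DOX cells and 4.33 and 4.70 in HP DOX cells, a difference of 2.89 (SE 0.83). Klf1, the erythroid Krüppel-like factor, was -2.36 and -2.56 in HE2 DOX cells and 1.10 and -0.28 in HP DOX cells. Both were higher in HP on each slide without passing the test, with blocked limma adjusted p of 0.251 and 0.272. Runx1, which drives the endothelial-to-hematopoietic transition, was 3.71 and 4.41 in HE2 DOX cells and 4.57 and 4.90 in HP DOX cells, and Myb, a factor of definitive progenitors, was 4.17 and 4.33 in HE2 DOX cells and 4.88 and 5.01 in HP DOX cells. The HP arrays of both lay above the HE2 arrays by less than 2-fold on average, and a second Runx1 probe gave a difference of -0.03. Spi1, which encodes the myeloid factor PU.1, was -1.77 and -6.46 in HE2 DOX cells and -1.84 and -1.94 in HP DOX cells, a mean difference of 2.22 that rests on HE2 DOX replicate 2, where it was not well above background. The difference on slide 1 alone was -0.07. Lower in HP were, besides Hoxb4, Gata3 with -1.48 and -1.64 on the slides, Gfi1 with -1.23 and -1.31 and Meis1 with -1.40 and -1.09. Gfi1 is known to repress endothelial genes at this transition, and Meis1 is a cofactor of HOX proteins.

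Red cell genes were mostly higher in HP. All 11 globin genes on the array were higher in HP, with a median of 1.11 (1.51 on slide 1, 0.57 on slide 3, and 0.79, 1.18, 0.70 and 1.53 without each array in turn), and 4 of the 9 members tested (44.4%) were separated and at least 2-fold higher, against 7.83% of all genes. Of those tested 9 were well above background on both HE2 DOX arrays and 9 on both HP DOX arrays, and the median over these 9 was 0.68. No globin passed in either fit. Globin genes are near copies of each other, so that probes may share signal. Hba-a2, an adult alpha globin, was 0.64 and 1.18 in HE2 DOX cells and 5.57 and 5.19 in HP DOX cells, a difference of 4.47 (SE 1.15). Hba-a1 was -1.45 and -2.48 in HE2 DOX cells and 2.40 and 1.46 in HP DOX cells, and Hba-x, the embryonic zeta globin, was -0.93 and -2.16 in HE2 DOX cells and 3.76 and 1.10 in HP DOX cells. For each of these 3 genes both HP arrays were above both HE2 arrays. Hbb-bh1, an embryonic beta globin, differed by 2.18 and 1.00 on the slides and Hbb-y, another, by 1.27 and -0.16. Of 30 erythroid genes, 24 were higher, the median was 0.63 (0.75 on slide 1, 0.46 on slide 3, and 0.46, 0.94, 0.71 and 0.72 without each array in turn), and 10 of the 25 members tested (40%) were separated and higher, against 1 separated and lower. Of those tested 20 were well above background on both HE2 DOX arrays and 25 on both HP DOX arrays, so that the choice of genes tested favours a higher HP level. No gene of the list passed in either fit, and Kel had the lowest p. Slc14a1, the urea transporter of red cells, was -5.71 and -3.24 in HE2 DOX cells and -0.84 and -1.28 in HP DOX cells, and Rhag, a Rhesus complex protein, differed by 2.58 and 2.05. Aqp1, a water channel of red cells and of endothelium, went the other way, with -2.00 and -3.25. The list of heme synthesis and iron genes had a median of 0.13 (0.23 on slide 1, 0.02 on slide 3, and -0.38, 0.50, 0.24 and -0.30 without each array in turn), and among them Tfr2 rose with the slide as a block, while Alas2, the erythroid start of heme synthesis, differed by 1.68 and 0.64. Hmox1, which breaks down heme and has a second probe at 0.11, differed by -1.31 and -0.74.

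General leukocyte genes were mostly higher in HP, by modest amounts. Of 38 such genes 30 were higher, with a median of 0.53 (0.96 on slide 1, 0.36 on slide 3, and 0.64, 0.73, 0.37 and 0.86 without each array in turn) and 13 of the 37 members tested (35.1%) separated and higher, and 0 were separated and lower. Of those tested 34 were well above background on both HE2 DOX arrays and 37 on both HP DOX arrays, and no member passed in either fit. In the lists of other cell types, described below, the share separated and higher was 40% for smooth muscle and 30.8% for fibroblast genes. It was 21.4% for endoderm, 20% for cardiac and mesoderm and 13.3% for pluripotency genes. Ncf4, a subunit of the phagocyte oxidase, was -1.69 and -0.96 in HE2 DOX cells and 1.53 and 0.72 in HP DOX cells, a difference of 2.45 (SE 0.60), and the populations did not overlap. Ptprc, which encodes CD45, the common leukocyte antigen, was -3.39 and -3.22 in HE2 DOX cells and -2.40 and -4.58 in HP DOX cells. It was higher in HP on slide 1 and lower on slide 3. Laptm5 and Fermt3 also had opposite signs on the slides, 1.66 and -1.55 and -2.21 and 1.40.

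In the myeloid list 29 of 38 genes were higher, with a median of 0.70 (0.85 on slide 1, 0.53 on slide 3, and 0.55, 0.71, 0.65 and 0.89 without each array in turn), and 11 of the 31 members tested (35.5%) were separated and higher against 3 separated and lower. Of those tested 23 were well above background on both HE2 DOX arrays and 30 on both HP DOX arrays, so that the choice of genes tested favours a higher HP level. Pirb, an inhibitory receptor, had the lowest p and was -4.37 and -3.28 in HE2 DOX cells and -1.14 and -1.71 in HP DOX cells. The chemokine receptor Cx3cr1 differed by 3.15 and 1.56 on the slides, and Mpo, the granule peroxidase of early myeloid cells, by 0.90 and 0.48. Mrc1, the mannose receptor, which macrophages and embryonic endothelium share, was 0.48 and 0.22 in HE2 DOX cells and -2.69 and -2.63 in HP DOX cells, and Tlr4, a receptor for lipopolysaccharide, was -2.31 and -2.66 in HE2 DOX cells and -4.48 and -5.09 in HP DOX cells, at least 4.32-fold lower in HP. Both were lower on each HP array. Mast cell and eosinophil genes were largely near background: 9 of 22 were tested, and the median over all of them was 0.37 (0.44 on slide 1, 0.22 on slide 3, and 0.42, 0.26, 0.14 and 0.43 without each array in turn). Of those tested 5 were well above background on both HE2 DOX arrays and 9 on both HP DOX arrays, so that the choice of genes tested favours a higher HP level. Among them Il1rl1 rose with the slide as a block. Cpa3, the mast cell carboxypeptidase, was -1.72 and -1.78 in HE2 DOX cells and 0.65 and 0.28 in HP DOX cells, higher on both HP arrays.

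Megakaryocyte and platelet genes showed no common direction, with 17 of 33 higher and a median of 0.07 (0.28 on slide 1, -0.18 on slide 3, and -0.40, 0.23, 0.05 and -0.02 without each array in turn). Of the 31 members tested 4 (12.9%) were separated and higher and 3 (9.68%) separated and lower, against 7.83% and 3.18% of all genes tested. Both HE2 DOX arrays detected 28 of those tested and both HP DOX arrays 31. Gp1bb, a chain of the platelet receptor for von Willebrand factor, had the lowest p and was -3.73 and -3.12 in HE2 DOX cells and -1.74 and -1.97 in HP DOX cells. Pf4, a platelet chemokine, differed by 0.11 and -1.64 on the slides and Vwf, which endothelium makes as well, by -1.50 and -1.80. Of 25 lymphoid genes 14 were tested, and the median over all was 0.36 (0.83 on slide 1, 0.14 on slide 3, and 0.31, 0.61, 0.33 and 0.74 without each array in turn). Of those tested 4 (28.6%) were separated and higher and 1 (7.14%) separated and lower. Both HE2 DOX arrays detected 12 of the 14 and both HP DOX arrays 14. Ebf1, a B cell factor also found in stromal cells, was 0.44 and 1.35 in HE2 DOX cells and -2.52 and -1.66 in HP DOX cells, lower on both HP arrays and thus against the median of the list. Cytokine receptors had a median of 0.04 (0.27 on slide 1, -0.24 on slide 3, and -0.20, 0.34, 0.07 and -0.13 without each array in turn). Il10ra, the receptor chain for interleukin 10, was -1.98 and -2.08 in HE2 DOX cells and 0.26 and -0.16 in HP DOX cells, a difference of 2.08 (SE 0.62). Il21r, another receptor gene of the list, was -3.92 and -3.54 in HE2 DOX cells and -6.01 and -5.16 in HP DOX cells, at least 1.87-fold lower. The erythropoietin receptor Epor differed by 1.05 and 0.67 on the slides.

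**Figure D4:**
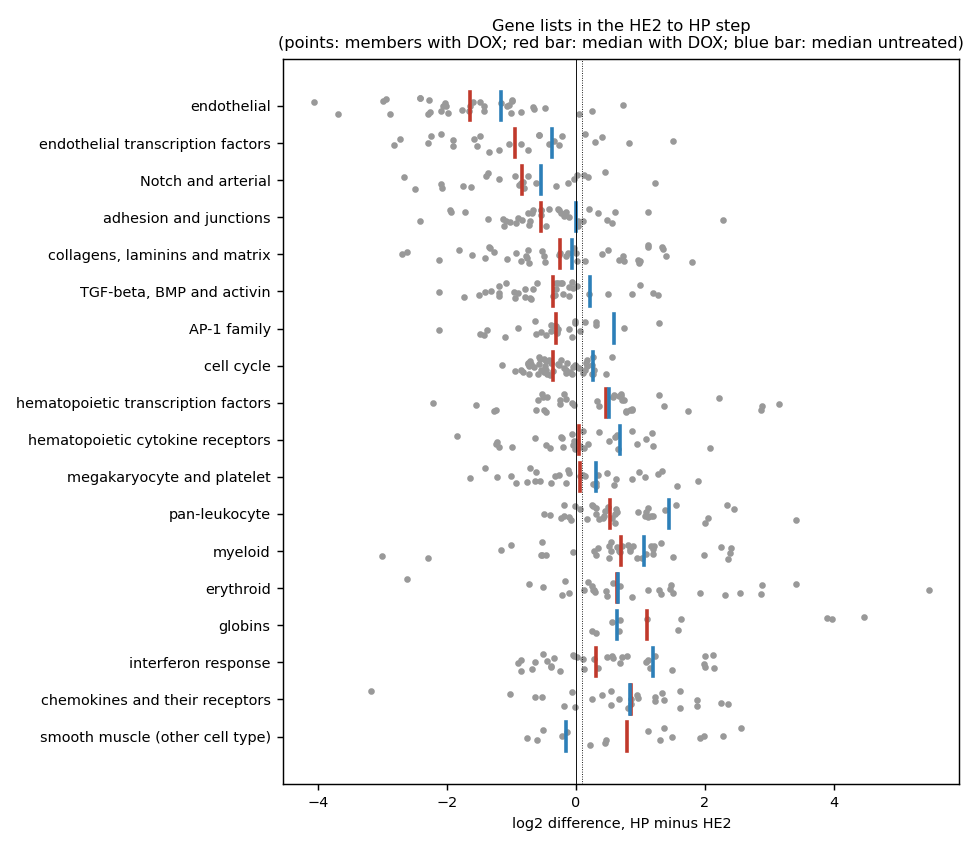
Difference HP minus HE2 (log2, horizontal axis) of the members of 18 gene lists with DOX (grey points, 1 per gene on the array), with the list median with DOX (red bar) and in untreated cells (blue bar); the dotted line is the median of all genes with DOX. Over the genes on the array, endothelial genes have the lowest median with DOX (-1.65) and globins the highest (1.11). Over the globin genes tested the median is 0.68.

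Genes for matrix and contact were lower in HP more often than higher. In the list of adhesion and junction genes 28 of 39 were lower, with a median of -0.54 (-0.58 on slide 1, -0.04 on slide 3, and -0.47, -0.47, -0.01 and -0.85 without each array in turn) and 7 of the 33 members tested (21.2%) separated and lower, against 1 separated and higher. Both HE2 DOX arrays detected 33 of those tested and both HP DOX arrays 32. Fblim1, a linker of integrin adhesions to filamin, had the lowest p and was 1.18 and 1.36 in HE2 DOX cells and -0.65 and -0.69 in HP DOX cells, and Tjp1, the tight junction scaffold ZO-1, differed by -2.12 and -1.33 on the slides. Of 41 matrix genes 24 were lower and 17 higher, with a median of -0.25 (-0.25 on slide 1, -0.29 on slide 3, and -0.44, 0.01, -0.12 and -0.68 without each array in turn), and 7 of the 30 members tested (23.3%) were separated and lower, against 2 separated and higher. Both HE2 DOX arrays detected 30 of those tested and both HP DOX arrays 29. Those separated and lower were Fbn1, Col4a1, Col4a2, Lama4, Nid1, Hspg2 and Fn1, of which Col4a1, Col4a2, Lama4, Nid1 and Hspg2 encode basement membrane proteins. Fbn1, fibrillin 1, was 1.32 and 0.87 in HE2 DOX cells and -1.97 and -1.10 in HP DOX cells, and Lama4, a vascular laminin chain, and Nid1, nidogen, differed by -3.85 and -1.56 and -2.21 and -2.05. Col1a1 and Col3a1, the fibrillar collagens of connective tissue, went the other way, by 1.31 and 2.29 and 1.35 and 0.89. Ligands, receptors and targets of the TGF-beta and BMP pathway were lower in 30 of 37 cases, with a median of -0.35 (-0.21 on slide 1, -0.56 on slide 3, and -0.72, -0.08, -0.31 and -0.74 without each array in turn), and 5 of the 30 members tested (16.7%) were separated and lower, against 0 separated and higher. The HE2 DOX arrays detected 30 of those tested and the HP DOX arrays 28. Tgfbr2, the type 2 TGF-beta receptor, had the lowest p and was 4.22 and 4.17 in HE2 DOX cells and 2.83 and 3.17 in HP DOX cells, a difference of -1.20 (SE 0.48). The ligand Bmp2 was 2.08 and 3.33 in HE2 DOX cells and 0.24 and 1.68 in HP DOX cells. Of the SMAD targets Id2 and Smad7 differed by -1.30 and -1.73 and -0.29 and -2.10.

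The AP-1 family itself, whose JUN partners the peptide binds, had 21 of 27 members lower in HP, with a median of -0.31 (-0.36 on slide 1, -0.25 on slide 3, and -0.54, -0.09, 0.01 and -0.66 without each array in turn). In 4 of the 26 members tested (15.4%) the arrays were separated and lower, against 3.18% of all genes, and in 1 they were separated and higher, with 25 of those tested detected on both HE2 DOX and 26 on both HP DOX arrays. Fos was 3.21 and 4.26 in HE2 DOX cells and 2.69 and 4.20 in HP DOX cells, so that the populations overlapped, with HP lower on each slide. Whether the probe also reads the introduced peptide is not given in the sources used here. Atf3, a stress-induced member, had the lowest p and was 0.14 and -1.65 in HE2 DOX cells and -2.48 and -2.01 in HP DOX cells. Nfe2, the erythroid partner of small MAF proteins, differed by 1.53 and 1.05 on the slides. Immediate early and stress genes had a median of -0.25 (-0.08 on slide 1, -0.14 on slide 3, and -0.48, 0.06, -0.0044 and -0.49 without each array in turn), and Dusp6, a phosphatase induced by ERK signalling, differed by -1.34. In the cell cycle list 37 of 51 genes were lower with a median of -0.37 (-0.16 on slide 1, -0.38 on slide 3, and -0.69, 0.22, 0.11 and -0.67 without each array in turn) and 0 separated by 2-fold in either direction, Kif11, a mitotic motor, having the lowest p with -0.65 and -0.79.

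Interferon genes had a median of 0.31 (0.65 on slide 1, 0.17 on slide 3, and 0.25, 0.29, 0.12 and 0.43 without each array in turn), which turned to -0.04 with median scaling, and 9 of the 30 members tested (30%) were separated and higher and 0 lower. Of those tested 24 were well above background on both HE2 DOX arrays and 30 on both HP DOX arrays, so that the choice of genes tested favours a higher HP level. Besides Ifitm1, which rose with the slide as a block, Oas2, an antiviral synthetase, was at least 2.99-fold and Ifi202b, a HIN-200 DNA sensor, at least 2.45-fold higher in HP, whereas Bst2 and Cmpk2 differed by -0.76 and -1.04 and -0.67 and -1.03 on the slides. Chemokines and their receptors had a median of 0.85 (0.93 on slide 1, 0.49 on slide 3, and 0.53, 1.07, 0.79 and 0.43 without each array in turn). Ccl5, a T cell and platelet chemokine, was -3.39 and -3.39 in HE2 DOX cells and -1.79 and -1.21 in HP DOX cells, a difference of 1.88 (SE 0.52), and Cxcl1, a neutrophil chemokine, differed by -2.27 and -4.10 on the slides and was at least 2.19-fold lower. Bcl2a1d, a survival gene of leukocytes with near-identical copies, was -4.96 and -4.76 in HE2 DOX cells and -2.17 and -2.74 in HP DOX cells, at least 4.25-fold higher in HP, while 19 of the 25 apoptosis genes were lower, with a median of -0.29 (-0.27 on slide 1, -0.20 on slide 3, and -0.24, -0.03, -0.19 and -0.35 without each array in turn). The remaining lists had medians between -0.25 and 0.27. Each of these medians except that of TEAD and Hippo genes, like those of the heme, platelet and cytokine receptor lists, took the other sign under another scaling or background correction, or without 1 array. In the order of that range they were VEGF and PDGF genes, mesenchymal transition factors, TEAD and Hippo genes, complement and coagulation, antigen presentation, ribosome biogenesis, actin and contractility, glycolysis and hypoxia, Wnt and Hox genes. The Hox median lay above 0, but of the 14 Hox genes tested 4 (28.6%, against 3.18% of all genes), Hoxb2, Hoxb4, Hoxb5 and Hoxb7, were separated and lower and 0 separated and higher. Detected on both HE2 DOX arrays were 14 of them and on both HP DOX arrays 11. Of 26 VEGF and PDGF genes tested 5 (19.2%) were separated and lower and 2 (7.69%) higher, with 26 detected in each population. Of 18 complement and coagulation genes tested 4 (22.2%) were separated and lower and 2 (11.1%) higher, with 17 detected in each. Of 11 mesenchymal transition factors tested 2 (18.2%) were lower and 2 (18.2%) higher, with 11 detected in HE2 DOX and 10 in HP DOX cells. Named for the lowest p of these lists, F3, tissue factor, differed by 2.72 and 2.87 on the slides, Twist2, a mesenchymal factor, by 0.93 and 2.62, and Fzd1, a Wnt receptor, by -2.08 and -1.67. Pdia3, Srm and Hif1a differed by -0.94, 0.48 and -0.89, all within 2-fold.

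Markers of other cell types that a sort could carry were checked on the same arrays. Of 16 smooth muscle genes 8 were well above background on both HE2 DOX arrays and 10 on both HP DOX arrays, the median difference was 0.79 (1.16 on slide 1, 0.60 on slide 3, and 0.45, 1.02, 0.65 and 0.44 without each array in turn), and 4 of the 10 members tested (40%) were separated and higher. Acta2, smooth muscle actin, was 3.89 and 4.58 in HE2 DOX cells and 5.50 and 6.95 in HP DOX cells, and Pdgfrb, a receptor of mural cells, was -2.37 and -1.10 in HE2 DOX cells and 0.45 and 1.19 in HP DOX cells, both higher on each HP array. Myh11, Lmod1 and Rgs5, which define mature contractile and mural cells, were not well above background on any of the 4 arrays. The summed linear level of the smooth muscle genes tested, relative to the 75th percentile of each array, was 53.7 and 104 in HE2 DOX and 94.4 and 255 in HP DOX cells, and it was higher in HP on each slide. The part of such cells in the values of other genes was not tested. For fibroblast markers of the feeder layer 12 and 13 of 18 genes were above background, the median difference was 0.70 (0.58 on slide 1, 0.60 on slide 3, and 0.18, 0.39, 0.34 and 0.66 without each array in turn), and 4 of the 13 members tested (30.8%) were separated and higher, against 1 separated and lower. Over the 13 members tested the median difference was 0.24. Their summed level was 6.44 and 6.98 in HE2 DOX and 6.66 and 8.29 in HP DOX cells, higher in HP on each slide. Dpt and Prrx1 were not well above background on any of the 4 arrays. The counts were 14 and 15 of 22 cardiac and mesoderm genes and 14 and 15 of 22 pluripotency genes, with Sox2 not above background on any array, and 10 and 13 of 21 endoderm genes, with Alb and Hnf4a not above background on any array. Their summed levels were 25.6 and 34.9 in HE2 DOX and 25.5 and 25.6 in HP DOX cells for cardiac and mesoderm, 87.3 and 210 in HE2 DOX and 106 and 169 in HP DOX cells for pluripotency and 161 and 183 in HE2 DOX and 166 and 200 in HP DOX cells for endoderm genes. The summed level of cardiac and mesoderm genes was about equal in both populations on slide 1 and lower in HP on slide 3. It was higher in HP on each slide for endoderm genes, and higher on slide 1 and lower on slide 3 for pluripotency genes. The median difference of the pluripotency list was 0.56 (0.84 on slide 1, 0.24 on slide 3, and 0.43, 0.77, 0.30 and 0.66 without each array in turn), with 2 of the 15 members tested (13.3%) separated and higher and 1 lower. That of the cardiac list was 0.07 (0.37 on slide 1, 0.06 on slide 3, and -0.00032, 0.10, 0.54 and 0.06 without each array in turn), with 3 of the 15 members tested (20%) separated and higher and 3 (20%) lower. That of the endoderm list was 0.17 (0.36 on slide 1, -0.32 on slide 3, and 0.03, 0.13, -0.25 and 0.39 without each array in turn), with 3 of the 14 members tested (21.4%) separated and higher and 4 (28.6%) lower. The part of these cells in the values of other genes was not tested either. The lowest p in the endoderm, cardiac and pluripotency lists were those of Krt18, Myh6 and Nodal. Krt18, a keratin of simple epithelia, was 2.39 and 3.01 in HE2 DOX cells and 4.16 and 5.60 in HP DOX cells, Myh6, a cardiac myosin whose second probe gave 0.37, was -3.17 and -4.21 in HE2 DOX cells and -2.55 and -0.52 in HP DOX cells, and Nodal, a ligand of the early embryo, was -1.92 and -1.34 in HE2 DOX cells and -0.77 and 0.19 in HP DOX cells.

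The same step was measured in untreated cells on 4 other arrays of the same 2 slides. There 4 of 25343 genes tested (0.0158%) were called, all higher in HP, in the fit without a block, and 110 with the slide as a block, and 1732 had an unadjusted p under 0.05. Without HE2 untreated replicate 2 the count was 156, without HE2 untreated replicate 1 or HP untreated replicate 2 it was 0, and on the values normalized by the authors it was 153. Of the 37 genes called with DOX and the slide as a block, 34 differed in the same direction in untreated cells, 21 of 23 lower and 13 of 14 higher genes, where 45.03% of the genes tested were lower and 54.97% higher without DOX. Their median untreated difference was -1.43 for the lower and 1.98 for the higher genes, and 10 of the 37 were also called without DOX under the same fit. Emilin2 was 0.86 and 1.19 in untreated HE2 and 4.71 and 4.45 in untreated HP cells, and Zbtb16 was -0.31 and -1.60 in untreated HE2 and 2.38 and 1.49 in untreated HP cells. Ldb2 was 0.42 and 1.26 in untreated HE2 and -1.45 and -1.53 in untreated HP cells. These 3 genes had the same direction on each slide with and without DOX. Across 23647 genes tested in both, however, the steps with and without DOX had a Pearson correlation of -0.05 and a Spearman correlation of -0.15. Among 18986 genes above background on all 8 arrays it was -0.38 on slide 1 and 0.22 on slide 3 (Pearson), a description across genes.

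The difference of the step between DOX and untreated cells was tested as an interaction, and 0 of 26104 genes (0.0%) passed, with 1165 at an unadjusted p under 0.05 and a lowest adjusted p of 0.877. With the slide as a block 0 passed as well, with quantile normalization 6. The lowest p of this test on the positive side were those of Foxl2os, Kcnk3 and Evx2. Kcnk3, a potassium channel, was -4.89 and -4.37 in HE2 DOX cells and -2.54 and -4.12 in HP DOX cells and -1.75 and -2.61 in untreated HE2 and -4.20 and -5.31 in untreated HP cells. Foxl2os and Evx2 were near background in DOX cells and not tested there, with -6.58 and -6.42 against -4.03 and -6.39 and -6.45 and -5.91 against -3.89 and -6.56 for HE2 DOX against HP DOX, and their signal came from the untreated HE2 arrays, at -1.87 and -4.03 and at -2.19 and -3.93. On the negative side stood Lpl, Fam107b and Gria3. Lpl, lipoprotein lipase, was -0.17 and -0.83 in HE2 DOX cells and -0.09 and -0.50 in HP DOX cells and -1.35 and -1.25 in untreated HE2 and 1.62 and 2.09 in untreated HP cells, so that it was higher on both untreated HP arrays and overlapped with DOX. Fam107b was 2.70 and 2.51 in HE2 DOX cells and 1.78 and 1.63 in HP DOX cells and 1.39 and 2.52 in untreated HE2 and 3.25 and 3.42 in untreated HP cells. Gria3 was near background with DOX, at -4.45 and -3.39 against -4.03 and -3.95. At the level of lists, the endothelial median was -1.65 with and -1.16 without DOX, that of endothelial transcription factors -0.94 and -0.38, and that of erythroid genes 0.63 and 0.64. Leukocyte genes had 0.53 with and 1.44 without DOX, interferon genes 0.31 and 1.20, AP-1 genes -0.31 and 0.59, TGF-beta genes -0.35 and 0.21, and cell cycle genes -0.37 and 0.26, beside -0.22 without DOX over all genes and transcripts. Differences between these medians were not tested.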

How the data were processed

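Total RNA of mouse cells, sorted populations and for some groups whole blast cultures, was hybridised to 27 one-colour Agilent arrays in 13 groups. The authors scanned the arrays and extracted spots with Agilent Feature Extraction (10.7.1.1 in the labels, 10.7.3.1 in the file headers), and deposited processed signal intensities per spot. They also deposited a table of normalized log2 values, used here as an alternative. Each of its 27 columns followed its own array most closely, and the column medians lay between 5.98 and 6.00, so that direction and log scale are known from the data, while the authors analysed their arrays with limma and the normalization between arrays is not given in the sources used here. Here the log2 of the processed intensity, averaged over the spots of a probe, was taken minus the 75th percentile of the array. Of 55681 probes 26582 carried a gene symbol, and a gene was read from the probe with the highest mean over all arrays, giving 37208 genes and transcripts, of which 20145 had a symbol. A gene was tested if it was well above background on both arrays of HE2 or of HP.

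Differences were fitted with limma 3.58.1 (R 4.3.3) over all 27 arrays with 1 mean per group, 14 residual and 4.6 prior degrees of freedom, and Benjamini-Hochberg adjustment over all genes tested. A gene was called at an adjusted p under 0.05 and at least 2-fold. The same fit with the slide as a block is given beside it, since slides 1 and 3 each held an array of both populations. The limma fit was tested on simulated arrays with known changes, without and with the slide as a block. The simulated arrays held no slide effect, and the other steps were not tested in this way. An "at least N-fold" sets the mean of the brighter population against the detection limit of the arrays, or against the dim signal where that is higher.

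The members and gene lists were chosen with earlier results of these data known. Named were the 10 genes with the lowest p in each direction, the sorting markers, the lowest p of each list and of each direction of the interaction; further genes were chosen after their values were seen. Of the list members 15 symbols were not matched and are not reported. Single results for a few genes are not reported here. Alternatives covered background correction, scaling, the authors' values, filters, probes, samples in the fit, blocks, weights, thresholds and leaving out arrays. Promoter sequences are those of RefSeq (GRCm38.p6). Figures were drawn with matplotlib 3.10.9.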

Additional observations from a re-analysis of the deposited data

Results flagged for a closer look

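The direction of the step was compared for the genes named for their lowest p and the sorting markers, not for the genes chosen after their values were seen. In 6 of the genes compared, both slides had one direction of the HE2 to HP step with DOX and the opposite direction without it. Kcnk3 and Fam107b were named for their low interaction p, so that the choice favoured such a reversal for both. The step with DOX minus the step without DOX was 2.83 (log2) for Myh6, 3.88 for Kcnk3 and 0.65 for Srm, and it was -1.70 for Tgfbr2, -1.78 for Hif1a and -2.29 for Fam107b. The interaction was tested with limma across 26104 genes, and each of these 6 had an adjusted p of 0.877, so that none passed.

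The medians of 5 gene lists likewise had opposite signs with and without DOX on both slides. The median with DOX minus the median without DOX was -0.90 for the AP-1 family, -0.78 for immediate early and stress genes, -0.75 for apoptosis genes, -0.62 for cell cycle genes and -0.38 for TEAD, YAP and Hippo genes. These differences were not tested. Without single arrays the medians with DOX reached 0.01 for the AP-1 family, 0.06 for immediate early and stress genes, -0.03 for apoptosis genes, 0.22 for cell cycle genes and -0.06 for TEAD, YAP and Hippo genes at the highest.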

How the results depend on the processing

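For the step with DOX, 17 of 26 alternatives called 0 genes as did the reported fit. Others called 1 (normexp background), 6 (quantile), 2 (replicate number as a block), 37 (slide as a block), 41 (slide as a random block) and 10 (array weights). Chosen after seeing the data, 3 were called without the untreated HE1 and HE2 arrays and 40 with normexp and the slide, 15 of them among the 37. Leaving out 1 array gave 0 to 5, the 5 without HE2 DOX replicate 1. Deviations of HE2 DOX and HP DOX arrays with the same replicate number correlated by 0.33, and by 0.48 in untreated cells. Number and slide coincide in these arrays, so a pairing of cells and a shared slide cannot be told apart.
For untreated cells the 4 calls became 55 (normexp), 71 (quantile), 25 (median), 153 (authors' values), 0 (no filter), 2 (above background in both populations), 0 (untreated arrays only), 0 (groups compared only), 8 (replicate block), 110 (slide as a block), 140 (slide as a random block), 0 (array weights), 0 (adjusted p under 0.01) and 0 (limma treat), and, chosen after seeing the data, 253 (normexp and slide), 368 (authors' values and slide) and 0 (sorted populations only). Leaving out 1 array gave 0 to 156, the 156 without HE2 untreated replicate 2. For the interaction 6 were called with quantile scaling. The causes were not tested beyond what each setting changes.
Of 57 genes followed in the step with DOX, 53 kept their sign under every alternative. Kit turned to -0.29 under median scaling and lay between -0.22 and 0.34 without single arrays. Itga2b lay between -2.31 and 1.47 without single arrays, Hmox1 turned to 0.11 with its highest probe, and Lpl turned to -0.15 (median scaling), -0.059 (mean of probes), -0.32 (lowest probe) and between -0.13 and 0.54 without single arrays. The interaction of Gria3 turned to 0.69 with its highest probe. Of 38 list medians 18 kept their sign, endothelial (-2.00 to -1.30), globin (0.38 to 1.53) and erythroid (0.28 to 0.94) among them, while that of the AP-1 family ranged from -0.66 to 0.01. For genes not well above background on some arrays, such as Fat4, Spi1 and Kcnk3, a difference also depends on signals near the detection limit.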
